A study of Homo sapiens and Mus musculus with 10 samples.

Results

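The 7 genes described here, ALAS2, SLC4A1, ANK1, EPB42, GYPB, TFRC and EPOR, encode proteins of the red cell membrane, of haem synthesis and iron uptake, and the erythropoietin receptor. They were chosen by name, not by a measured value, but with earlier results of these data known. They are 7 of 19970 protein-coding genes on the autosomes and X in GENCODE release 44. For each gene, peaks of accessible chromatin were listed at its start sites (within 1 kb of any annotated start), inside the gene body, and in the 50 kb flanks, and this whole stretch is called its neighbourhood. Peaks of the 8 human libraries that overlapped were merged into regions, which gave 162 regions in the 7 neighbourhoods out of 243200 in the genome.

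The study profiled bulk chromatin accessibility by short-read ATAC-seq, in which the Tn5 transposase inserts adapters into open DNA, in 4 human cell lines and in mouse embryonic stem cells, with 2 replicates per line. The human lines were K562, an erythroleukaemia line, GM12878, B cells turned into a lymphoblastoid line, HFF1, fibroblasts of foreskin, and HEK293T, embryonic kidney cells that carry the SV40 large T antigen. Each is an established line grown in serum-containing medium, thawed from frozen cells before nuclei were isolated, and the labels name no treatment or genetic change made for the study. The mouse libraries were not used here.

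Red cells carry anion exchanger and glycophorin proteins in a membrane that is held to a spectrin skeleton through ankyrin and protein 4.2. Their precursors take up transferrin-bound iron, start haem synthesis with an erythroid form of 5-aminolevulinate synthase, and depend on erythropoietin for survival. In erythroid cells the transcription factor GATA1, often with TAL1 and with KLF1, binds regulatory DNA of many of these genes.

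The deposited lists held 71241 to 127359 peaks per library on the autosomes and X, except for HEK293T with 52438 and 52137. A background level that scales with depth was 0.465 and 0.466 reads per window in the HEK293T libraries and 1.71 to 2.43 in the other 6, so a missing peak in HEK293T means less than in another line. A list holds only peaks past the authors' threshold, and a missing peak is reported as not listed, not as closed chromatin. Promoters of 5 of 5 erythroid marker genes were called in K562 (a peak in both replicates) and 2 of 5 in each other line, with GATA1, TAL1 and HBG2 called in K562 alone. Promoters of 5 of 5 B cell markers were called in GM12878, 5 of 5 fibroblast markers in HFF1 and 5 of 5 kidney and neural markers in HEK293T, against 1 to 3 of 5 in the lines of other origin. Of 4 T cell and monocyte markers, 2 were called in GM12878, 0 in HEK293T, 1 in HFF1 and 2 in K562. In bulk chromatin, many cells with a weakly open site and few cells with a strongly open site cannot be told apart.

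K562 had regions of its own in each of the 7 neighbourhoods. Most of them lay in gene bodies and flanks, as did most regions of any call. Of the 162 regions, 22 (13.6%) were called in K562 and held no peak in any library of another line, against 6.31% of all regions. Of these 22, 3 lay at start sites, 9 in gene bodies and 10 in flanks. Of all 162 regions, 16 lay at start sites, 54 in gene bodies and 92 in flanks. Regions called in GM12878 alone were 21 (13.0%, against 14.7% of all regions), in HFF1 alone 19 (11.7%, against 21.2%) and in HEK293T alone 1 (0.617%, against 1.78%). A further 19 regions were called in all 4 lines, and 37 were called in none, since no line had a peak there in both replicates. By gene, the K562-only regions numbered 7 at GYPB, 4 at ANK1, 3 each at ALAS2 and TFRC, 2 each at SLC4A1 and EPB42, and 1 at EPOR. With flanks of 25 kb, EPOR had 0 such regions. The gene body itself, start sites included, held a K562-only region in 5 of the 7 genes, a call that 24.4% of all genes shared. After pileups were thinned to the depth of HEK293T, 12 of the 22 regions still had a peak in both K562 libraries, 3 in 1 library and 7 in neither. The same shares over all K562-only regions of the genome are not given here.

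The sequences shown lie under K562 peaks at ALAS2, SLC4A1, EPB42, GYPB and TFRC, because GATA letters were present in most of the K562-only regions. They are a selection in which each window holds a GATA match. Windows at EPB42, GYPB and TFRC that hold none are not printed. The SLC4A1 intron 1 region was not of K562 alone. All 5 genes lie on the minus strand of GRCh38 (hg38), and each sequence is printed 5′ to 3′ in the direction of its gene, in lower case. Capitals mark matches on either strand to the GATA letters AGATAA, the form TGATAA, the form AGATAG or the form TGATAG. A match on the other strand appears as the reverse complement, and KLF letters or AP-1 letters are in capitals where they are named. The first 3 belong to ALAS2, and the third of these lies in an intron of its neighbour PFKFB1. The SLC4A1 pair comes from the first intron and from the upstream flank, and the EPB42 and GYPB sequences lie directly upstream of the canonical start sites. The TFRC sequence lies inside the annotated gene but beyond the end of the canonical transcript.
ALAS2 intron 1, chrX:55028147-55028297: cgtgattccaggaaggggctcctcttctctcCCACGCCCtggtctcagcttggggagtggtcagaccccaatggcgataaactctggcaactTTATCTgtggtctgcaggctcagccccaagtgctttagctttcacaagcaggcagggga
ALAS2 intron 8, chrX:55015139-55015289: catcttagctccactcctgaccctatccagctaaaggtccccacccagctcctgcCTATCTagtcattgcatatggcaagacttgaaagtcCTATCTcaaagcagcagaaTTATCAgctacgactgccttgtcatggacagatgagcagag
ALAS2 downstream flank, chrX:54993040-54993190: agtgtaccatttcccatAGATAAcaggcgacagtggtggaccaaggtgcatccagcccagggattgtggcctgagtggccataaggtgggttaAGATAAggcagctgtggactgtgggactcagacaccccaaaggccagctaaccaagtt
SLC4A1 intron 1, chr17:44266692-44266842: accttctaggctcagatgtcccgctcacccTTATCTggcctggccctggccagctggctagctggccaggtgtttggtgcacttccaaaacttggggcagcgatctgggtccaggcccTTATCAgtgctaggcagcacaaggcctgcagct
SLC4A1 upstream flank, chr17:44288509-44288659: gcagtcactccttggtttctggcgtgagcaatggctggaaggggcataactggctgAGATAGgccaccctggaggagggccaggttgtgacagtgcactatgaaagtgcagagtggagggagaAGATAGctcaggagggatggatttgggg
EPB42 start site, chr15:43221019-43221127: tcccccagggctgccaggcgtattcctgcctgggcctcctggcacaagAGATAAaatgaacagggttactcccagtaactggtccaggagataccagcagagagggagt
GYPB start site, chr4:144019381-144019497: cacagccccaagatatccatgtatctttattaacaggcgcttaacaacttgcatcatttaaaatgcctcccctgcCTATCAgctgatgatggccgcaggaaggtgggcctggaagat
TFRC gene body, chr3:196022647-196022797: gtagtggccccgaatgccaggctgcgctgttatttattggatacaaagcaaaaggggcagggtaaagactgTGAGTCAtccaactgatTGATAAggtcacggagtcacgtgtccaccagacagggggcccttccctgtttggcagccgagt

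In ALAS2 intron 1, the capitals mark the KLF letters CCACGCCC, 44 bp before the summit, and 1 GATA match, 17 bp after it. Intron 8 holds 3 GATA matches in the printed window, all on the opposite strand to the gene. The TFRC window holds the AP-1 letters TGAGTCA, 4 bp before the summit, beside 1 GATA match. Within 100 bp on either side of each summit, GATA letters were found in 16 of the 22 K562-only regions of these genes (72.7%). The share was 54.1% of the 15335 K562-only regions of the genome and 27.3% of all 243200 regions. All 7 K562-only regions of GYPB were among the 16, and 29.2% to 83.1% of their 32-base words recurred on chromosome 4. All those of ALAS2 and SLC4A1 also held GATA letters. Some at ANK1, EPB42 and TFRC, and the EPOR region, held none. In the same neighbourhoods GATA letters were found in 6 of 21 GM12878-only regions (28.6%, against 28.4% in the genome) and in 3 of 19 HFF1-only regions (15.8%, against 24.3%). A GATA match preceded by CTG and a gap of 7 or 8 bases, the arrangement of a joint GATA and E-box site, was in 5 of the 22 K562-only regions (22.7%), against 12.8% of K562-only regions and 2.39% of all regions of the genome. These counts overlap, since each joint match contains a GATA match. AP-1 letters (TGAGTCA or TGACTCA) were in 8 of 19 HFF1-only regions (42.1%, against 23.9% in the genome) and in 1 of 22 K562-only regions (against 13.1%). KLF letters (CCACACCC, CCGCACCC, CCACGCCC or CCGCGCCC) were in 1 of the 22 (against 9.19% in the genome), and NFE2 letters (GCTGAGTCA or GCTGACTCA, which contain AP-1 letters) in 0 of the 22. The NFE2 share of K562-only regions in the genome was 3.92%. A match describes letters in a window and is not a measure of binding.

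**Figure D1:**
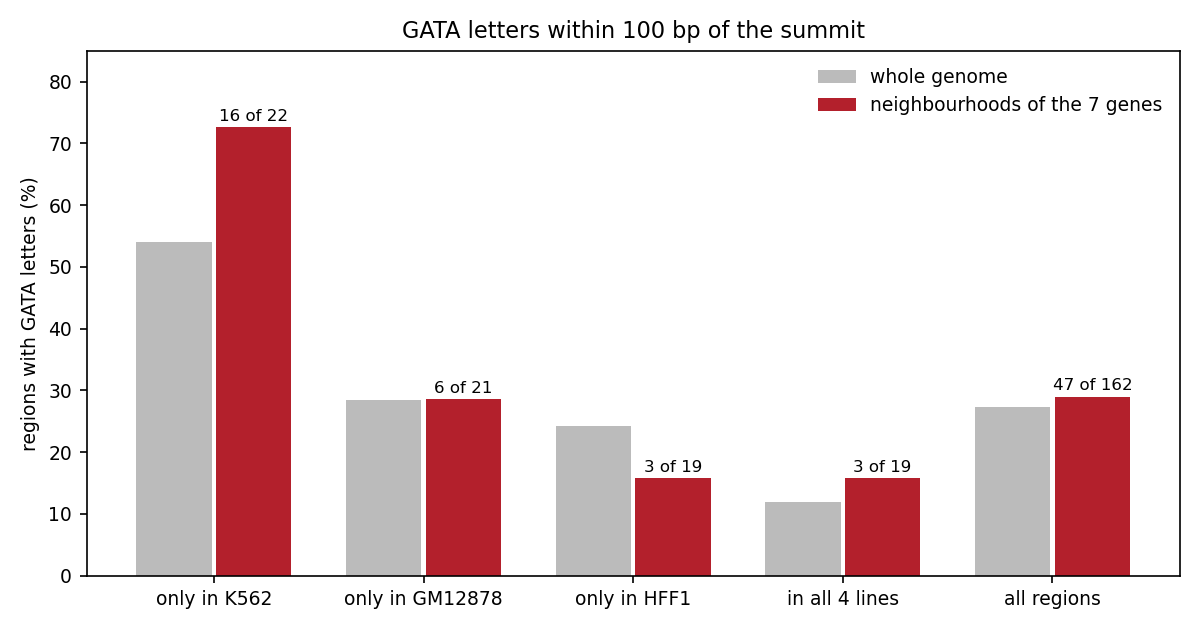
Share of regions (y axis, %) with GATA letters within 100 bp of the summit, by the lines in which a region was called, for all regions of the genome and for the regions in the 7 gene neighbourhoods. The K562-only regions stand at 54.1% in the genome and 72.7% near the 7 genes, above the GM12878-only and HFF1-only regions in both sets. All 7 K562-only regions of GYPB, in partly repeated sequence, are among those with GATA letters.

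ALAS2, the erythroid enzyme that catalyses the first and rate-limiting step of haem synthesis, was marked in K562 by 2 strong intronic regions and by no peak at its start sites. The region in intron 1 (chrX:55027883-55028408, summit 2755 bp after the canonical start) had a deposited fold over local background of 12.9 in K562 replicate 1 and 10.9 in replicate 2, from pileups of 59 and 47 reads. The region in intron 8 (chrX:55014738-55015494, summit 15763 bp after the start) had folds of 11.8 and 10.9, from 71 and 60 reads. No library of GM12878, HEK293T or HFF1 listed a peak in either region, and both were still listed in both K562 libraries at HEK293T depth. The deposited fold, −log10 p and −log10 q are the authors' own values, and are used only to describe or rank peaks within 1 list. By −log10 p, the intron 8 peak ranked in the top 10.0% of its list in replicate 1 and the top 14.1% in replicate 2, and the intron 1 peak in the top 12.4% and 19.6%. Of genes of like length (80% to 125% of its length), 3.26% had as many K562-only regions in the body as ALAS2, or more. A weaker K562-only region lay in the downstream flank inside PFKFB1 (chrX:54992747-54993250, summit 37862 bp after the start), with folds of 8.11 and 7.41.

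The other regions near ALAS2 were called in several lines or overlapped a neighbouring gene. The region at chrX:55074916-55075113 had a peak in K562 replicate 2 alone, with a fold of 6.07, and overlapped the start of PAGE2B. The region at chrX:54999589-55000639 was called in all 4 lines. A region in HFF1 alone (chrX:55008634-55009074, folds of 6.33 and 6.52) overlapped the end of the annotated ALAS2 gene but lay in an exon of APEX2, a DNA repair nuclease gene. The whole neighbourhood held 5 and 6 peaks in K562, 4 and 4 in HFF1, 2 and 2 in GM12878, and 2 and 1 in HEK293T. Both K562 libraries were above the other 6, and HFF1 came next. Of genes of the genome, 6.42% showed K562 above the other 6 libraries in this way, and 2 of the 7 genes did, ALAS2 and GYPB. The number was 5 of 7 with the 50000 top peaks of each library (background 18.9%; SLC4A1, TFRC and EPOR were added) and 4 of 7 by base pairs covered (background 8.58%; SLC4A1 and TFRC were added). With flanks of 100 kb the number was again 2 (background 6.39%), but the genes were GYPB and TFRC, and ALAS2 no longer met the rule. The mean was 5.50 ± 0.707 peaks in K562 (SD, n = 2) and 2.50 ± 1.22 in the others (SD, n = 6), a difference of 0.96 in log2(peaks + 1). In a comparison added after the data were seen, an exact two-sided permutation test over the 28 choices of 2 libraries among 8 gave p = 0.0357, the smallest it can give, and an adjusted p of 0.498 over all genes, also the smallest.

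**Figure D2:**
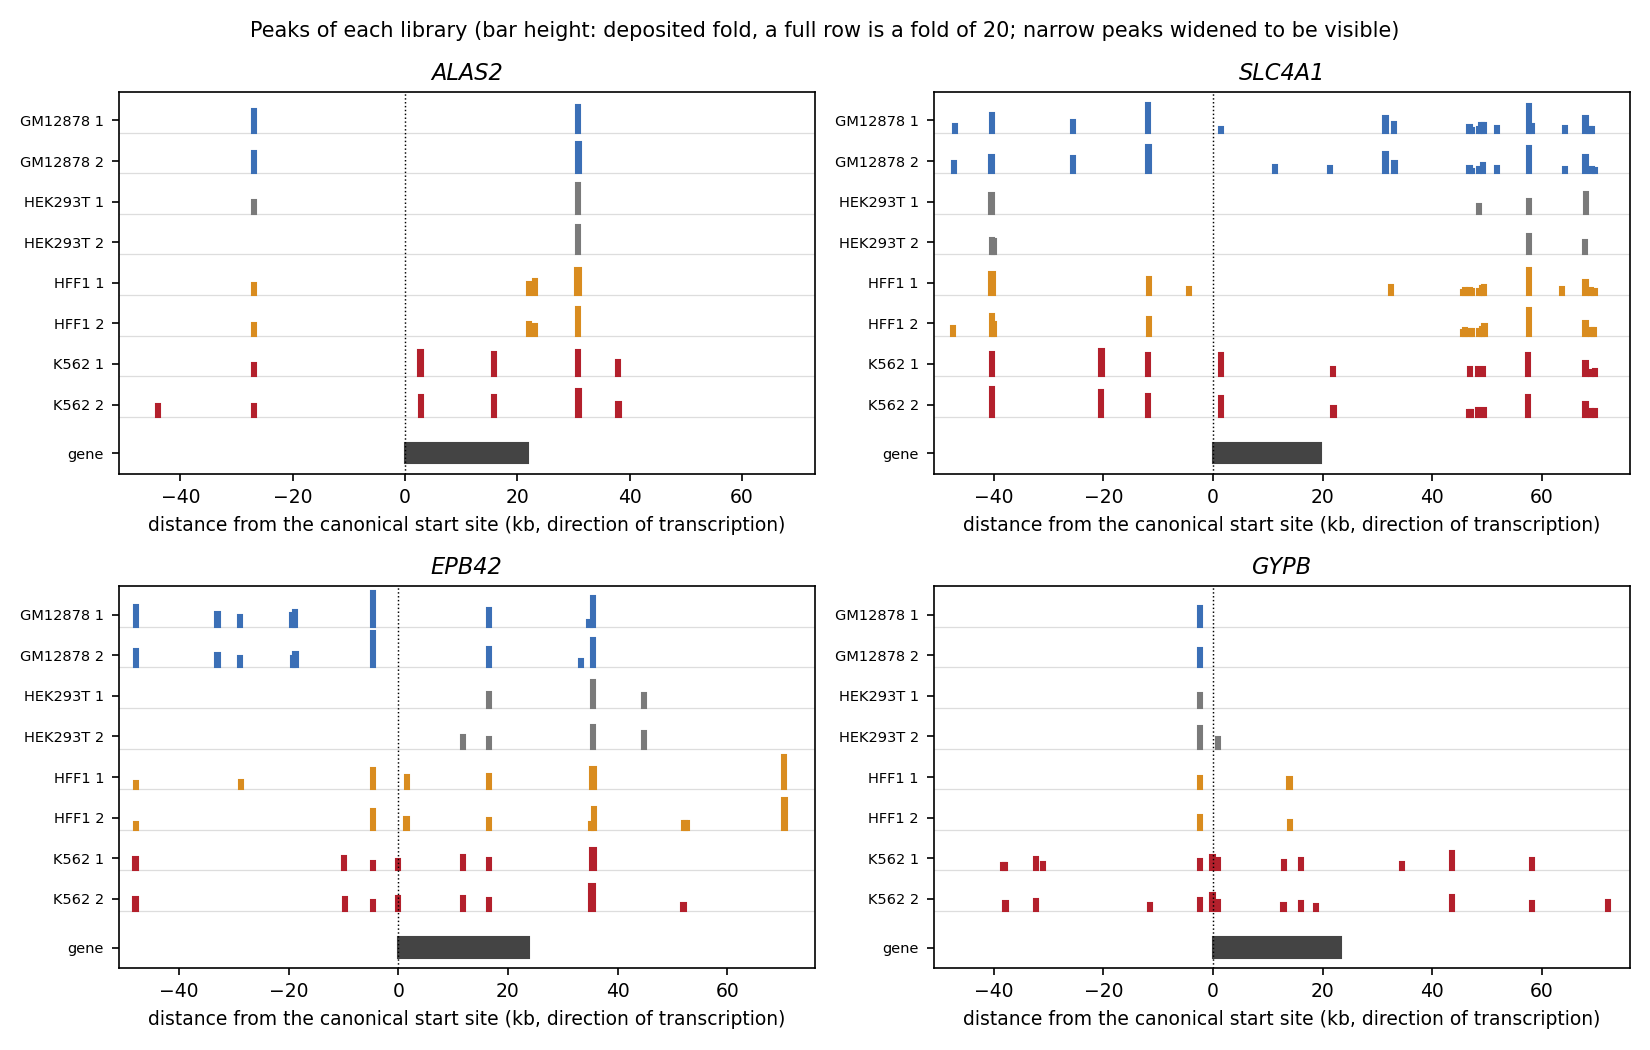
Peaks of the 8 human libraries along the neighbourhoods of ALAS2, SLC4A1, EPB42 and GYPB. The x axis is the distance from the canonical start site in kb, positive in the direction of transcription, each row is 1 library, bar height is the deposited fold (a full row is a fold of 20), and the dark bar is the gene. K562 alone has bars inside ALAS2 introns, and at the canonical start sites of EPB42 and GYPB (the dotted line). At a further start site of each of these 2 genes, HEK293T replicate 2 has a bar beside those of K562.

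SLC4A1, which encodes band 3, the anion exchanger that is the most abundant red cell membrane protein, likewise had no peak within 1 kb of a start site in any library. Its intron 1 (chr17:44266466-44267016, summit 1368 bp after the canonical start) had folds of 11.2 and 10.4 in K562, from 71 and 61 reads. The same interval had a fold of 2.89 from 13 reads in GM12878 replicate 1, a peak at the foot of that list (rank 100% by −log10 p), and no peak in GM12878 replicate 2, HEK293T or HFF1. That 1 weak peak is why the region was not counted among those of K562 alone. With start sites widened to 2 kb, this region became a start-site call of SLC4A1 in K562.

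A stronger K562 peak lay in the upstream flank of SLC4A1 (chr17:44287972-44288973, summit at −20449 bp from the canonical start), outside any protein-coding gene. Its folds were 13.3 and 13.0, from 76 and 65 reads, and it ranked in the top 7.19% and 9.65% of the K562 lists. No other line listed a peak there, and it was still listed in both K562 libraries at HEK293T depth. A weaker K562-only region lay 21930 bp after the start (chr17:44245934-44246438), with folds of 4.34 and 5.12, and it was lost in both libraries at that depth. Both flank regions held 3 GATA matches within 100 bp of the summit. The number of peaks in the whole neighbourhood did not follow these regions. It was 19 and 18 in GM12878, 16 and 15 in HFF1, 11 and 12 in K562 and 4 and 4 in HEK293T, and most of these peaks lay in the flanks, where ATXN7L3, UBTF and RUNDC3A are. K562 lay between the other lines.

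ANK1 encodes ankyrin-1, which ties band 3 to spectrin, and it was the longest of the 7 genes (chr8:41653220-41896741) with 13 annotated start sites and 54 regions. The lines differed in which of these start sites had listed peaks. The region at the canonical start (chr8:41797271-41798635) had folds of 7.40 and 7.68 in K562 from 120 and 111 reads, 8.98 and 9.28 in HFF1, 4.41 in GM12878 replicate 1, and no peak in GM12878 replicate 2 or HEK293T. K562 and HFF1 were thus the 2 lines with a call there. The start site farthest upstream (chr8:41895906-41896368) was called in all 4 lines, with folds from 6.98 to 11.5.

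Other start regions of ANK1 were each open in few lines. A region 30023 bp after the canonical start (chr8:41766966-41768111) had folds of 7.96 and 6.07 in HEK293T and of 4.24 and 4.99 in HFF1. A region called in HFF1 alone (chr8:41704770-41705266) had folds of 7.33 and 7.90, and a region called in GM12878 alone (chr8:41665201-41665517) had 6.38 and 8.32. A last region (chr8:41693629-41693905) had 1 peak, in HFF1 replicate 1, with a fold of 5.44. None of these 4 held a K562 peak. The 4 K562-only regions of ANK1 lay in the gene body. The strongest of them (chr8:41812317-41813009, summit at −15258 bp from the canonical start) had folds of 9.21 and 8.05. A region at chr8:41864961-41865209 had 6.76 and 7.37, and the remaining 2, at chr8:41772636-41773027 and chr8:41818773-41818974, had 4.52 and 4.01, and 3.60 and 3.42. With 10 regions each, GM12878 and HFF1 had more regions of their own at ANK1 than K562. Of genes of like length, 13.5% had as many K562-only regions in the body as ANK1, or more. Neighbourhood peaks numbered 30 and 30 in HFF1, 24 and 23 in GM12878, 23 and 19 in K562, and 13 and 10 in HEK293T, and K562 and GM12878 met at 23.

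EPB42 encodes protein 4.2, which binds band 3 and ankyrin. Its canonical start site had a region in K562 alone (chr15:43220609-43221429), with folds of 5.68 and 7.41 from 42 and 48 reads. A start-site region within intron 6 of the canonical transcript (chr15:43209071-43209325, 11816 bp after the canonical start) had folds of 7.65 and 7.48 in K562 and 6.51 in HEK293T replicate 2. No other library listed either region, and the single HEK293T peak kept EPB42 out of the promoters called in K562 alone. A flank region of K562 (chr15:43230591-43231113, summit at −9802 bp from the canonical start) had folds of 6.94 and 6.79 and no peak elsewhere. In each K562 list these 3 regions had lower folds than the intronic peaks of ALAS2 and SLC4A1. A region in intron 10 (chr15:43204201-43204616) was called in all 4 lines, and a region in intron 1 (chr15:43219377-43219645) in HFF1 alone with folds of 6.85 and 6.36. The neighbourhood held 9 and 9 peaks in GM12878, 7 and 9 in HFF1, 7 and 8 in K562, and 3 and 4 in HEK293T, and K562 lay within the range of HFF1.

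GYPB, which encodes glycophorin B, a sialic-acid-rich surface protein that carries the S and s blood group antigens, showed the widest gap of the 7 genes between K562 and the rest. Its neighbourhood held 12 and 12 peaks in K562, 2 and 2 in HFF1, 1 and 2 in HEK293T, and 1 and 1 in GM12878. No other library came near the K562 number, and the neighbourhood contained no other protein-coding gene. The mean of K562 was 12.0 ± 0 peaks (SD, n = 2), with a difference from the other 6 libraries of 2.41 in log2(peaks + 1) with the same exact permutation p of 0.0357 and adjusted p of 0.498. Of genes of like length, 0.527% had as many K562-only regions in the body, start sites included, as the 3 of GYPB, or more.

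The GYPB start-site region (chr4:144019256-144019694) had folds of 7.55 and 8.65 in K562, from 42 and 44 reads, and no peak in another line. A start-site region within intron 1 (chr4:144018342-144018535) had 6.26 and 5.45 in K562 and 5.84 in HEK293T replicate 2. In the body, K562 alone had regions at chr4:144003235-144003514 (folds of 6.07 and 5.03) and chr4:144006272-144006683 (5.05 and 3.93). These are modest folds, and neither body region kept both K562 peaks at HEK293T depth. Of the 4 K562-only flank regions, the strongest (chr4:143975463-143976106) had 9.71 and 7.93, and the region at chr4:144051538-144051788 had 6.55 and 5.73. The remaining flank regions, at chr4:143961051-143961482 and chr4:144057171-144057393, had folds of 3.74 to 5.92. GM12878 listed only the region at chr4:144021652-144021905, which was called in all 4 lines.

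GYPB shares near-identical sequence with GYPE on the same chromosome, and reads may be placed at the wrong copy. In the start-site region, 74.8% of all 32-base words occurred again on chromosome 4, and over the 16 regions of the neighbourhood this share ran from 27.3% to 90.8%. Which copy gave the reads cannot be told apart from these lists. At ALAS2 the share was 0% in both intronic regions and in the PFKFB1 flank region. The promoter of GYPE was called in K562 alone.

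**Figure D3:**
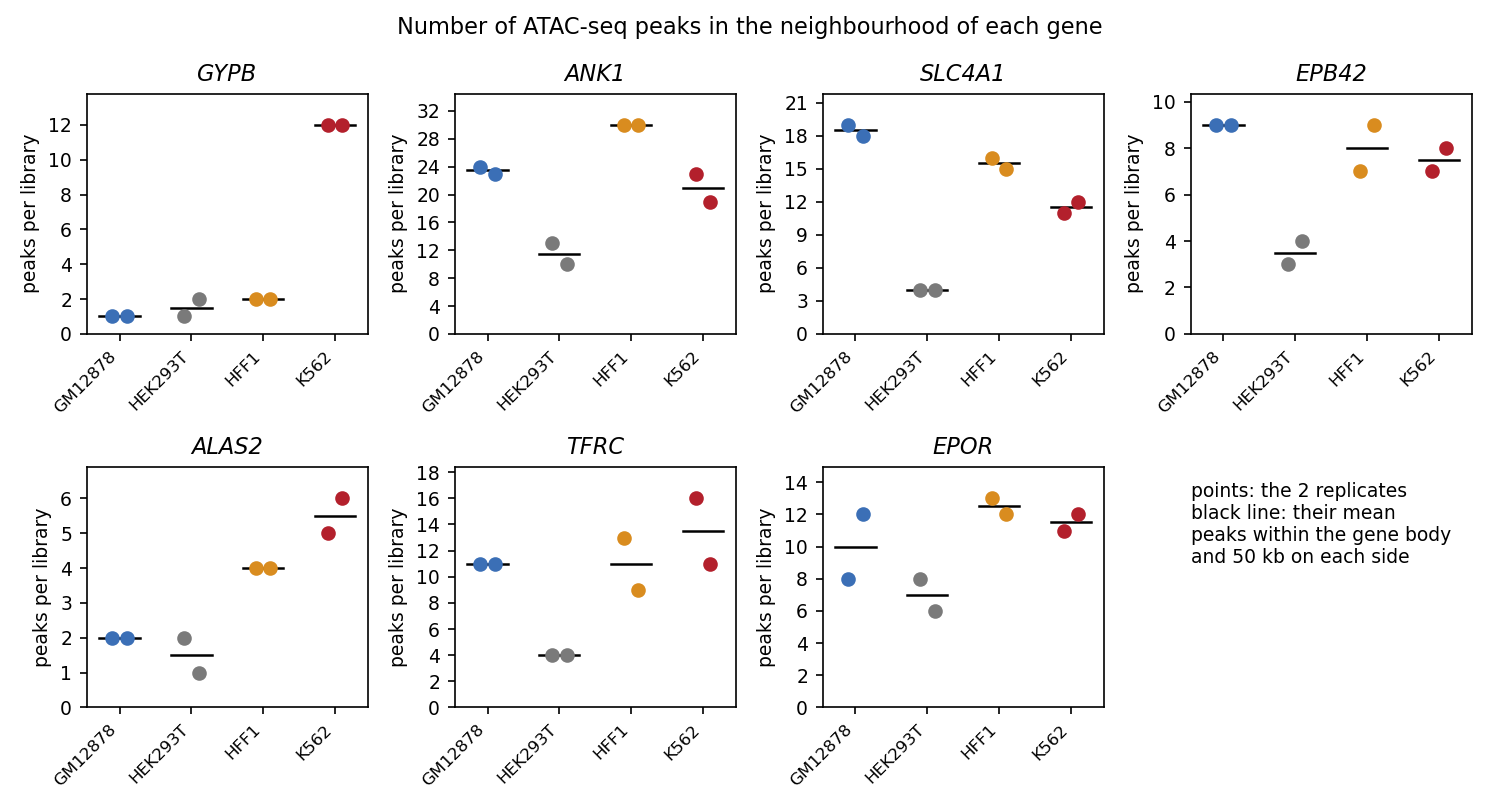
Peaks per library in each gene's neighbourhood (y axis, number of peaks, 1 panel per gene), with 1 point per replicate for GM12878, HEK293T, HFF1 and K562. K562 stands above all other libraries for GYPB (12 and 12) and ALAS2 (5 and 6) and lies within their range for ANK1, SLC4A1, EPB42 and EPOR.

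TFRC encodes the transferrin receptor, by which most dividing cells take up iron, and its main start site was open in every library. The region (chr3:196081031-196082490) had folds of 10.5 and 11.2 in GM12878, 11.5 and 9.09 in HEK293T, 11.1 and 11.9 in HFF1, and 8.48 and 8.26 in K562. Folds are relative to each library's own background and were not compared between libraries. Within its own list the peak ranked in the top 1.27% to 4.43% in GM12878, HFF1 and K562, and in the top 21.2% and 40.5% in HEK293T. A region in intron 4 (chr3:196073194-196073677) was also listed in all 8 libraries, with folds from 5.04 to 15.0.

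What set K562 apart at TFRC was weaker. An internal start-site region in intron 16 (chr3:196055778-196056198) had folds of 5.89 and 4.53, a body region (chr3:196022611-196022813) had 4.80 and 5.44, and a flank region (chr3:196110499-196110698) had 5.80 and 5.09. At HEK293T depth none of these 3 was listed in both K562 libraries. Another annotated start (chr3:196063646-196063849) had 1 peak, in HFF1 replicate 1, with a fold of 3.50. Upstream of the gene, the region at chr3:196108123-196108831 was stronger in the K562 lists, with folds of 9.72 and 10.1, but HFF1 replicate 1 also listed it with 5.29. HFF1 alone had a region at chr3:196016530-196016883, with folds of 13.3 and 11.4. TFRC neighbourhood peaks numbered 16 and 11 in K562, 13 and 9 in HFF1, 11 and 11 in GM12878, and 4 and 4 in HEK293T, and all lines but HEK293T overlapped.

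EPOR, the receptor for erythropoietin, was called open at a start site in all 4 lines, but at different start sites. At the canonical start (chr19:11383945-11384517) the K562 folds were 8.02 and 8.40, from 79 and 71 reads, and the HFF1 folds 3.71 and 3.59, from 42 and 34 reads. GM12878 and HEK293T listed no peak there. The next region (chr19:11382846-11383747, summit 745 bp after the canonical start) had highest folds of 6.43 and 6.44 in K562, 2.76 and 2.64 in GM12878 and 3.23 in HFF1 replicate 2, and no peak in HEK293T. The pattern then turned over. The internal start region (chr19:11380775-11382253, summit 3096 bp after the canonical start) had folds of 6.33 and 6.67 in GM12878, 7.76 and 7.64 in HEK293T and 6.09 and 6.22 in HFF1, and neither K562 library listed a peak in it. These were the 3 start-site regions of EPOR, and none lay in 1 line alone.

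K562 thus had its EPOR peaks at the canonical start and in the stretch after it, where the other lines had weak peaks or none, and lacked the peak that the other 6 libraries shared. HEK293T, the shallowest line, listed the internal region in both replicates. An exon of the adjoining gene RGL3 overlaps the summit at the canonical start, so that region may not be assigned to EPOR alone. The single K562-only region of the neighbourhood (chr19:11425876-11426097, folds of 5.17 and 4.08) lay inside ODAD3, a cilia gene, with its summit at −41701 bp from the canonical start. The neighbourhood has 7 other protein-coding genes and held 13 and 12 peaks in HFF1, 11 and 12 in K562, 8 and 12 in GM12878, and 8 and 6 in HEK293T. HEK293T lay below HFF1 and K562, and the other ranges overlapped or met.

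**Figure D4:**
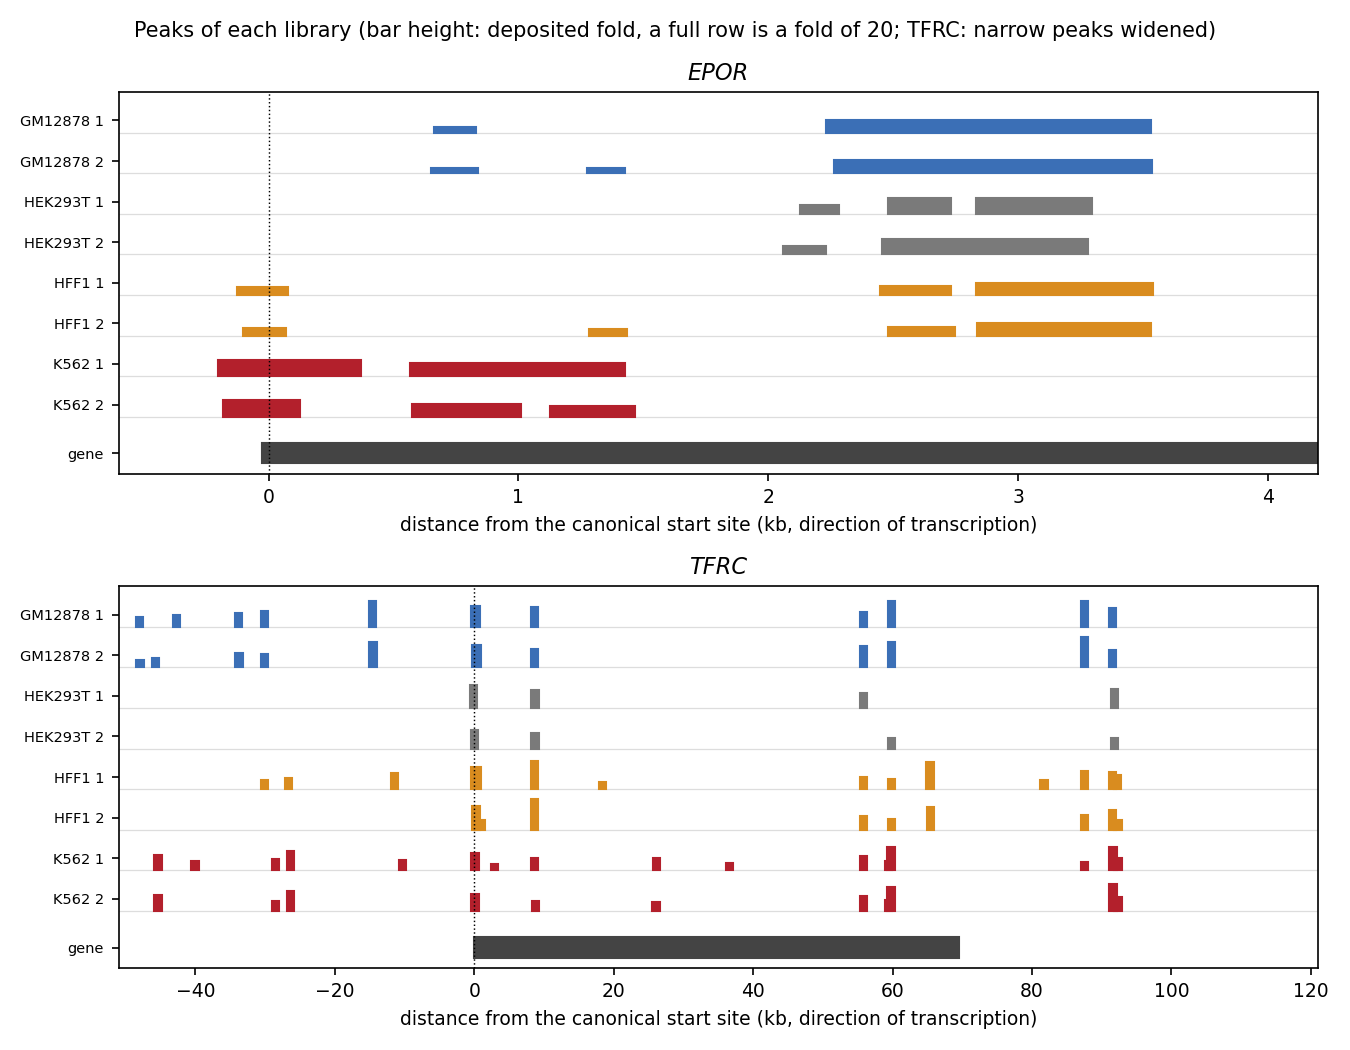
Peaks of the 8 human libraries at the first part of EPOR and along the TFRC neighbourhood. The x axis is the distance from the canonical start site in kb in the direction of transcription, each row is 1 library, bar height is the deposited fold (a full row is a fold of 20), and the dark bar is the gene. At EPOR the K562 bars lie at the canonical start and just after it, and the other 6 libraries have their tallest bars farther into the gene; at TFRC every library has bars at the start site.

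Start-site calls of the 7 genes were more frequent in K562 than in the other lines by 2 genes. The K562 count was close to the share over all genes, and the counts of the other lines were below theirs. A promoter was called in K562 for 5 of the 7 genes (GYPB, ANK1, EPB42, TFRC and EPOR), against 70.4% of all protein-coding genes. In GM12878, HEK293T and HFF1 it was called for the same 3 genes, ANK1, TFRC and EPOR, against 71.9%, 67.8% and 76.2% of all genes. These 3 genes were called in all 4 lines, against 59.7% of all genes. SLC4A1 and ALAS2, or 2 of the 7, had no promoter peak in any human library, against 14.7% of all genes. No gene of the 7 was called in K562 with no peak in another line (background 1.12%), since HEK293T replicate 2 had 1 peak each at GYPB and EPB42. Without HEK293T replicate 2, both genes met that rule.

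Whether the number of neighbourhood peaks differed between the 4 lines was tested for 19158 genes by the share of variance of log2(peaks + 1) that lay between lines, with an exact one-sided permutation test over every way to put the 8 libraries into pairs. With Benjamini-Hochberg adjustment over all genes, 0 of the 7 genes and 0% of all genes passed an adjusted p of 0.05, since the smallest adjusted p was 0.0518. At an unadjusted p under 0.05, 3 of the 7 passed, against 61.3% of all genes. SLC4A1 had a share of 0.997 (exact permutation p = 0.00952, the smallest possible), ANK1 0.951 (p = 0.0190, exact) and ALAS2 0.928 (p = 0.0286, exact), each with an adjusted p of 0.0518. GYPB reached 0.981 and EPB42 0.933 (exact p = 0.0857 for both), TFRC 0.919 (exact p = 0.114) and EPOR 0.758 (exact p = 0.171). The median share was 0.933 over the 7 genes and 0.941 over all genes. The result turned on how peaks were counted. With flanks of 100 kb, 6 of the 7 genes passed the adjusted threshold, all but GYPB, as did 12874 of 19605 genes, and with base pairs covered in place of peak number 5 passed, all but GYPB and EPOR, as did 16398 of 19717 genes. The median difference of K562 from the other lines was 0.25 in log2(peaks + 1) over the 7 genes and 0.01 over all genes. Nothing in the labels says that replicates were separate cultures, so these p-values measure the spread between libraries, which may be technical.

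For each gene, protein-coding genes elsewhere in the genome with the most similar pattern of neighbourhood peak number are given as a description. Over the 8 libraries, the highest Pearson correlations were 0.983 for GYPB (with NBAS) and 0.980 (FAM181B), 0.996 for ANK1 (ARFGAP1 and ZNF69), 0.999 and 0.998 for SLC4A1 (KIAA0040 and UCP3), and 0.995 and 0.992 for EPB42 (RAB28 and ZBTB32). For ALAS2 the value was 0.980 (SPATA16), for TFRC 0.994 and 0.987 (NSF and DAPK3), and for EPOR 0.975 and 0.970 (TMEM269 and RNF26). These points come from 4 lines and share each library's depth.

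Other genes of the same pathways were counted in the same way. Of 18 membrane genes, promoters of 17 were called in K562, 11 in HFF1, 10 in GM12878 and 9 in HEK293T, and 9 in all 4 lines. Over all protein-coding genes the shares were 70.4%, 76.2%, 71.9%, 67.8% and 59.7%, in the same order. GYPE and RHAG, the latter encoding the Rh-associated glycoprotein, were called in K562 with no peak in another line (2 of 18, against 1.12% of all genes), and RHD had no promoter peak in any library. K562 stood above all other libraries in neighbourhood peak number for 8 of the 18, KEL and ACKR1 among them, beside the 6.42% of all genes. The glycophorin genes and the RH genes lie in clusters of near-identical sequence and do not count as separate observations. The median difference of K562 from the others was 0.74 in log2(peaks + 1) for the membrane genes, against 0.01 over all genes.

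The enzymes and transporters of haem and iron had promoter calls in most lines. The shares of all genes to read these counts against are 71.9% in GM12878, 67.8% in HEK293T, 76.2% in HFF1 and 70.4% in K562 for a called promoter, and 6.42% for K562 above all other libraries. Of 14 haem genes, promoters of 14 were called in GM12878, HEK293T and HFF1 and 13 in K562, which lacked a call at HMOX1, the inducible haem oxygenase. K562 stood above all others in neighbourhood peaks for 3 of them, with a median difference of 0.14. Of 14 iron genes, promoters of 13 were called in K562 and HFF1, 12 in GM12878 and 11 in HEK293T, with HAMP, the gene of the iron hormone hepcidin, called in GM12878 alone. K562 stood above the others for 1 of the 14, TF. Of 7 genes of erythropoietin signalling, promoters of 7 were called in HFF1, 6 each in GM12878 and K562 and 4 in HEK293T, with EPO itself called in HFF1 alone, and K562 stood above the others for 0 of the 7. In the exact permutation test between lines, 0 genes of the 4 lists passed the adjusted threshold. At an unadjusted p under 0.05, 14 of 18 membrane genes, 10 of 14 haem genes, 10 of 14 iron genes and 5 of 7 genes of erythropoietin signalling passed, beside 61.3% of all genes.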

How the data were processed

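Accessible chromatin was measured in 10 ATAC-seq libraries, and the peak lists of the 8 human libraries were used. Per the labels' protocols, about 20000 nuclei per sample were sorted after tagmentation, amplification took 15 cycles, and a gel selected fragments from 200 to 700 bp. Per the submitters' processing notes, cutadapt 3.2, Bowtie2 2.4.2, Picard and MACS2 2.2.7.1 were used with hg38 for human samples; parameters, including any shift of reads for the transposase, are not given in the sources used here. Each deposited list was called on 1 library and gives a fold (a ratio of summit to local background), a score, and p-values and q-values as −log10. The lowest deposited −log10 q was 2.00 to 2.05.

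Groups and replicate numbers came from the sample titles. Whole-number summit pileups and backgrounds that solve the deposited fold and −log10 p were recovered for 100% of peaks, and gave the depth and the thinned lists. Reads carry no molecular identifiers, so PCR copies may count more than once. Replicates shared 0.0534% to 0.0934% of intervals exactly, and 0 of these had the same fold. Gene models were GENCODE 44. Regions needed a peak of each replicate (overlap of at least 1 bp) to be called in a line, and counted as of that line alone if the other 6 libraries listed none. Genes with at least 8 peaks summed over the libraries were tested. Repeats were counted as 32-base words recurring on the gene's own chromosome. Steps were tested on simulated data. Python 3.11.15, numpy 2.4.6, pandas 2.3.3, scipy 1.17.1 and matplotlib 3.10.9 were used.

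The members, the pathway lists, the markers and the tests were chosen with earlier results of these data known. Each of the 7 genes is named in full, with every start-site region and every region of K562 alone. Other pathway genes are named for a promoter called only in K562 or in no line, and up to 2 genes most alike are given per member. Some genes of these lists are not reported here by name. Further regions and further pathway genes were named after their values were seen. The alternatives were a stricter q, lists of equal length, thinning, other flank and start-site widths, summit position, covered base pairs, a stricter overlap, a replicate block, and each library left out.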

Additional observations from a re-analysis of the deposited data

How the results depend on the processing

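The lists hold no read numbers, replicates number 2 per line, and HEK293T is the shallowest line, so calls missing there are limited by depth. The 5 promoters called in K562 stayed 5 with each library left out. With the 50000 top peaks per library, genes with K562 above all other libraries rose from 2 to 5 (background 18.9%). Regions of 1 line alone became 13 for GM12878, 2 for HEK293T, 5 for HFF1 and 24 for K562. With base pairs covered, that number of genes was 4 (background 8.58%), and genes differing between lines went from 0 to 5. With 100 kb flanks, the genes with K562 above all others were GYPB and TFRC, without ALAS2, genes differing between lines were 6, and regions of GM12878 alone 32 and of HEK293T alone 2. Thinning left 14 regions of GM12878 alone, 1 of HEK293T alone, 10 of HFF1 alone and 15 of K562 alone. The shares over all regions of the genome at these other settings are not given here, so these counts have no background beside them. Requiring overlap of 50% of the shorter peak gave 2 regions of HEK293T alone, and start sites of 500 bp gave 1 promoter in K562 alone (GYPB). The causes of these changes were not tested.

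With each library left out in turn, promoters in K562 alone ranged from 0 to 2, and genes with K562 above all others from 2 to 3. Regions of K562 alone ranged from 22 to 33. The numbers of such genes and regions were both highest without K562 replicate 2. The share of all genes with K562 above all others was also highest there. With any library left out, this share was higher than with all libraries. Without either K562 replicate, a K562 call rested on the other K562 library alone, which is a looser rule. Shares over the genome beside the promoter and region counts are not given here. Deviations of same-numbered libraries correlated by −0.01 to 0.01, so no shared deviation by replicate number was seen. Whether same-numbered libraries were prepared together cannot be told from these values. With the replicate block, 0 of the 7 genes differed between lines (smallest adjusted p = 0.130, exact permutation over 24 pairings). The smallest p of this permutation test was 0.0417, and 0 of 19158 genes passed. It could therefore not show whether the block matters.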
